A study of Mus musculus with 451 samples.

Results

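Contractile genes of the smooth muscle type were followed through single cells of mouse tail tendon. The set was given as 10 gene symbols, Acta2, Tagln, Tagln2, Myl9, Cnn1, Cnn2, Tpm1, Tpm2, Actn1 and Mustn1, and all 10 were found among the 48795 symbols of the count table, of which 25841 had a read. Cells came from C57BL/6 mice at 4 weeks of age, either wild type (WT) or of the Mkx-/- genotype, in which the gene of the tendon transcription factor Mohawk is targeted. After collagenase digestion, cells were captured, with no sort described, in wells of a Fluidigm C1 microfluidic chip, and each sample was 1 cell. The 451 cells comprised 227 WT and 224 Mkx-/- cells. No label tied a cell to an animal or a chip, so each genotype was 1 sample, no test between genotypes was made, and a genotype, an animal and a chip cannot be told apart.

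In smooth muscle, force is generated by myosin sliding on filaments of smooth muscle actin, on which tropomyosins and calponins sit, while α-actinin ties filaments to each other and to adhesions. Genes of this apparatus commonly carry CArG boxes, which bind serum response factor (SRF) together with myocardin in smooth muscle or with myocardin-related factors elsewhere. Fibroblasts that switch on Acta2 are called myofibroblasts, and they are known from healing and fibrotic tendon.

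Because SRF acts through these boxes, the promoters of the members were searched for the CArG box on both strands, from 250 bases before to 50 after 1 transcript start per gene in RefSeq (GRCm38.p6). The window was at hand for 9 members, all but Tagln. Its start was the outer end of the gene for Tagln2, Cnn2 and Mustn1, and lay 29 to 459 bases inside that end for the other 6, farthest for Tpm1 and then Acta2, so bases before an outer start were searched only in part or not at all. A CArG box was present in 2 of them, Myl9 and Cnn2, against 488 of 27025 genes (1.81%). The stretch around each box is shown because these are the members with a match, with the box in capitals. In Myl9, a regulatory light chain of myosin, it lay upstream of this start, in the shown stretch chr2:156775273-156775342 on the plus strand. In Cnn2, a calponin of non-muscle cells, it began 56 bases before the start, in chr10:79988514-79988583 on the plus strand.
Myl9: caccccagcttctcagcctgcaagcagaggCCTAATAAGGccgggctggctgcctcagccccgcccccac
Cnn2: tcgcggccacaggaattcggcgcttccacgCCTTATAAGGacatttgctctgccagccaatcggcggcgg
A TATAAA motif on either strand was found in 0 of the 9 windows and in 15.7% of all genes. These matches describe letters in a window and not binding in tendon cells.

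The WT cells held 13630536 reads (median 51788 per cell, 13076 to 335813) and the Mkx-/- cells 14145394 (median 56121, 14226 to 294791). Mkx itself stood at 33.8 counts per 1000000 summed reads (CPM) for WT and 15.5 CPM for Mkx-/-, and it was detected in 22.9% and 12.9% of cells. Counts per gene do not show whether the reads of Mkx-/- cells lie in the deleted part, so they do not check the genotype. Clustering gave 3 states, and Tnmd and Fmod, which mark tendon, had reads in no fewer than 84.2% of cells in any of them. Cells with high Cd44, Thy1, Ly6a, Fstl1 and Tppp3 were tendon progenitor cell-like (TPC-like, 45.8% of WT and 43.3% of Mkx-/- cells), and cells with high Col1a1, Col1a2, Tnmd and Fmod were tenocyte-like (TC-like, 32.6% and 36.2%). The remaining cluster 3, led by Mmp3, rested on only 2 markers and was left unnamed (21.6% and 20.5%). TC-like cells were read most deeply, with a median of 82854 reads in WT and 72866 in Mkx-/-, against 43978 and 48779 in TPC-like and 37566 and 41631 in cluster 3 cells. The deepest WT cell, a TC-like cell with 335813 reads and 9924 genes, stood apart: it had reads of 8 of 9 endothelial markers (474 reads), 7 of 9 pericyte markers (317 reads) and 3 of 4 Schwann cell markers (574 reads). Of the members it had 8 reads of Tagln, 1 of Acta2, 20 of Actn1, more of Tagln2, Tpm1 and Mustn1, and 0 of Myl9, Cnn1, Cnn2 and Tpm2. WT values that rest on the TC-like state are given with and without it where it moved them most.

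The label of the set was checked against a list of 10 smooth muscle genes, whose restriction to that tissue was not tested. Myh11, the myosin heavy chain that defines the tissue, had 5 WT reads and 0 Mkx-/- reads, Actg2 had 0 in both, and Pln had 0 and 1. Desmin (Des) had 10 and 1 reads, Lmod1 2 and 8, and Kcnmb1 7 and 0. The other 4 genes of this list of 10 had more reads. Smtn had 349 and 456 reads, Mylk 457 and 228, and Synpo2 59 and 253. Myocd had 16 and 47, which came from only 1 WT and 2 Mkx-/- cells. The list was thus mixed, with Myh11 and Actg2 at or near 0 in both genotypes, and the members are described as genes rather than as a sign of smooth muscle cells. Over the 9 genes of the list other than Mylk, used as smooth muscle markers, 7 had a read in WT and 6 in Mkx-/- cells. Their summed level was 32.9 CPM in WT and 54.2 CPM in Mkx-/-. Levels per cell ran from 0 to 752.6 and from 0 to 815.9 CPM. A read was present in 28.6% and 39.3% of cells, shares that were not taken at equal depth. Smtn and Synpo2 held most of the 448 WT and 766 Mkx-/- reads of these markers. With cells thinned to equal depth, the share with a Smtn read was 3.23 points higher in Mkx-/- (-4.14 to 10.6). For Synpo2 this difference was 2.84 points (-1.33 to 7.25).

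The members fell into a group read in few cells and a group read in many. Acta2, Tpm2, Myl9, Tagln and Cnn1, which are usually taken as smooth muscle genes, had a read in 14.1%, 11.9%, 4.85%, 3.96% and 2.20% of WT cells, and in 16.96%, 14.7%, 10.7%, 4.02% and 0.446% of Mkx-/- cells. Tagln2, Mustn1, Tpm1, Actn1 and Cnn2 were found in 79.3%, 74.01%, 59.9%, 33.5% and 22.9% of WT cells, and in 88.4%, 83.04%, 72.8%, 52.7% and 23.7% of Mkx-/- cells. Here a level is the CPM of the summed reads, and its range in parentheses is an exact Poisson interval at 95% that covers counting error only, since reads are not independent molecules. Intervals of ratios (conditional binomial), of shares (Clopper-Pearson) and of differences between shares (Newcombe) have the same limit, and neither kind speaks to variation between animals.

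Acta2, which encodes smooth muscle α-actin, was a gene of TC-like cells in both genotypes. In WT its level was 66.6 CPM (60.4 to 73.3) in TC-like cells, against 7.41 (4.24 to 12.04) in cluster 3 and 6.45 (4.44 to 9.05) for the TPC-like state. In Mkx-/- cells it was 83.97 (77.3 to 91.1), 3.23 (1.30 to 6.66) and 5.38 CPM (3.55 to 7.83), with the states given as for WT. The TC-like level was thus 10.3 times the TPC-like level in WT (10.9 times without the deepest cell, at 70.1 CPM) and 15.6 times in Mkx-/- cells, while cluster 3 and TPC-like cells did not differ beyond their intervals. Of the cells with an Acta2 read, 27 of 32 in WT and 27 of 38 in Mkx-/- were TC-like. Most TC-like cells nevertheless had none, since the share with a read was 36.5% in WT and 33.3% in Mkx-/-. Thinned to 20000 reads per cell, which removes the difference in depth, the shares in TC-like cells were 31.1% and 25.9%, against 0.971% and 5.38% in TPC-like cells. Single-cell levels had a median of 0 in both genotypes and a maximum of 914.6 CPM for WT and 1116 CPM for Mkx-/-.

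**Figure D1:**
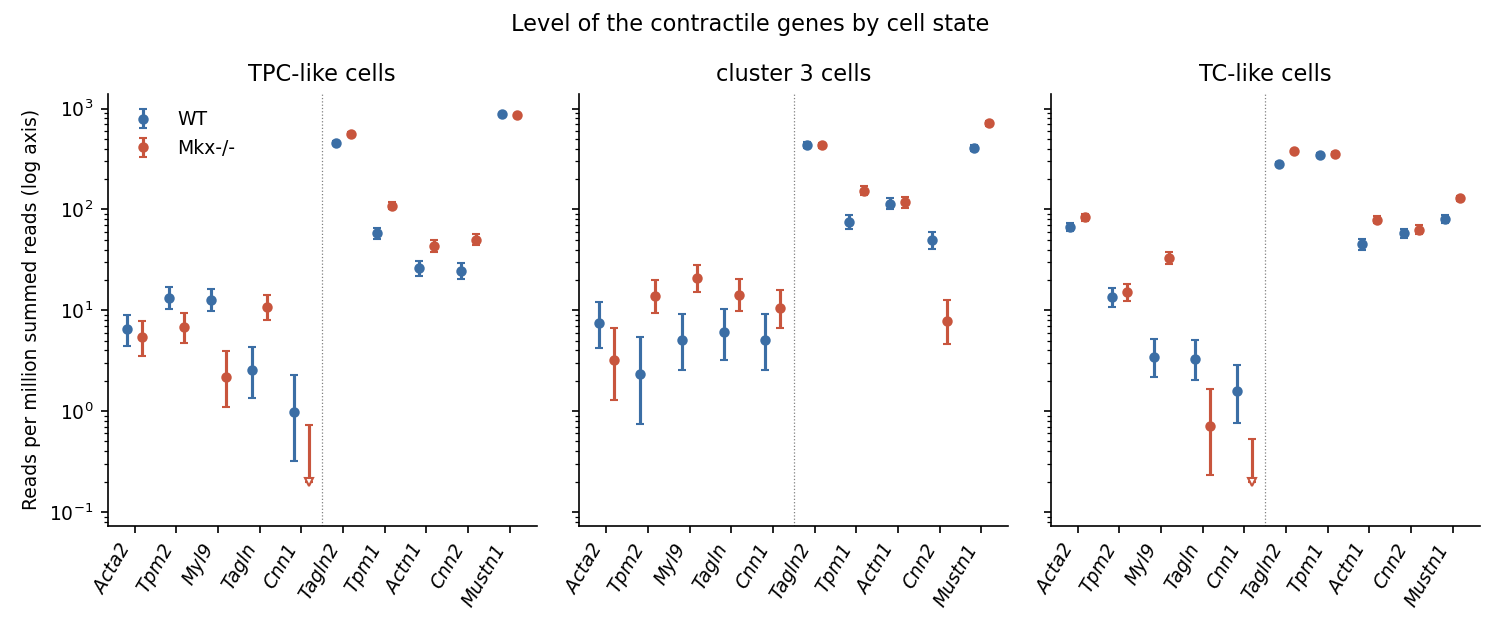
Level of each contractile gene (CPM of summed reads, log axis) in cells of the TPC-like, cluster 3 and TC-like states, with WT in blue, Mkx-/- in red and bars for 95% Poisson intervals; open triangles mark 0 reads, and heights are to be compared between states and genotypes rather than between genes. Acta2 and Tpm1 stand highest in TC-like cells and Mustn1 in TPC-like cells in both genotypes.

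Tpm1, a tropomyosin with muscle and non-muscle isoforms, was also highest in TC-like cells. Its level in WT was 349 CPM (334.5 to 364) in TC-like cells, against 74.6 (63.5 to 87.02) in cluster 3 and 57.8 (51.4 to 64.8) for the TPC-like state. In Mkx-/- cells it was 355 (341 to 369), 153.4 (137.4 to 170.8) and 109.3 CPM (100.3 to 118.8). TC-like cells exceeded TPC-like cells 6.03 times in WT (5.97 times without the deepest cell, at 345 CPM) and 3.25 times in Mkx-/-, and 91.9% and 96.3% of TC-like cells had a read. Tpm2, its partner in muscle, did not share this pattern. In WT it stood at 13.5 CPM (10.8 to 16.7) in TC-like and 13.3 (10.3 to 16.8) in TPC-like cells, with intervals that overlapped almost wholly, and at 2.32 CPM (0.752 to 5.40) in cluster 3. The Mkx-/- levels were 15.1 (12.3 to 18.2), 6.78 (4.70 to 9.48) and 13.9 CPM (9.35 to 19.8), so there TPC-like cells were lowest. Car9 overlaps Tpm2 in the annotation and had 1010 reads, and the strand used in counting is not given in the sources used here, so Tpm2 is uncertain to that extent.

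Mustn1, a small nuclear protein of developing muscle and skeleton, had the opposite order. In WT its level was 874 CPM (849 to 900.2) in TPC-like cells, against 406 (380 to 434) in cluster 3 and 80.8 (73.9 to 88.1) for the TC-like state. In Mkx-/- cells it was 867 (841 to 893), 713 (678 to 750.0) and 128.5 CPM (120.2 to 137.2). A single cell held 29.1% of the Mkx-/- cluster 3 reads. With the richest cell left out, the cluster 3 levels were 378.1 CPM in WT and 536.9 CPM in Mkx-/-. The median over cluster 3 cells was 222.5 CPM in WT and lower, 173.2 CPM, in Mkx-/-. TPC-like cells held 10.8 times the TC-like level in WT and 6.75 times in Mkx-/-. The deepest cell alone held 21.1% of the Mustn1 reads of WT TC-like cells, and without it the TC-like level was 67.3 CPM (60.9 to 74.2) and the TPC-like level 12.99 times as high. Tagln2, a relative of transgelin found in most tissues, also stood lower in TC-like cells, at 281 CPM (268 to 294, or 266 without the deepest cell) against 456 (438 to 475) in TPC-like WT cells and at 377 (363 to 392) against 564 (543 to 585) in Mkx-/- cells.

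Actn1, the α-actinin of non-muscle cells, was highest in cluster 3, with 114.4 CPM (100.6 to 129.6) for WT and 118.3 (104.2 to 133.7) for Mkx-/-. Its TPC-like levels were 26.2 (21.9 to 30.998) and 43.3 (37.7 to 49.4), and its TC-like levels 45.03 (39.96 to 50.6) and 79.2 CPM (72.8 to 86.1). Cnn2 in WT was lowest in TPC-like cells, at 24.6 CPM (20.5 to 29.3), while its cluster 3 level of 49.6 (40.6 to 59.9) and TC-like level of 57.8 (52.02 to 64.004) overlapped. Myl9 was highest in TPC-like cells in WT, at 12.7 CPM (9.80 to 16.2), from 7 cells of which a single cell held 43.1% of the reads, and in TC-like cells in Mkx-/-, at 32.9 CPM (28.8 to 37.4). Tagln was highest in cluster 3 in both genotypes, at 6.02 (3.21 to 10.3) and 14.3 CPM (9.73 to 20.3), from 3 and 2 cells, and these intervals overlapped those of TPC-like cells, at 2.54 (1.35 to 4.34) and 10.8 CPM (8.09 to 14.1). In Mkx-/- a single cell held 83.9% of the cluster 3 reads. With the cell richest in Tagln left out of each state, cluster 3 stood at 3.33 CPM and TPC-like cells at 0.399 in WT, while in Mkx-/- cluster 3 stood at 2.42 CPM (5 reads) and TPC-like cells at 4.24 (21 reads), so the order turned over there. Acta2, Mustn1, Myl9, Tagln and Tpm1 were among the 1691 genes that shaped the clusters, so their order over states is a description and not a test. When all listed genes were left out of the clustering, 95.6% of cells kept their state, and the log2 ratio of TC-like to TPC-like cells in WT was 3.24 for Acta2 (3.37 with them), 2.52 for Tpm1 (2.59) and -3.52 for Mustn1 (-3.44).

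**Figure D2:**
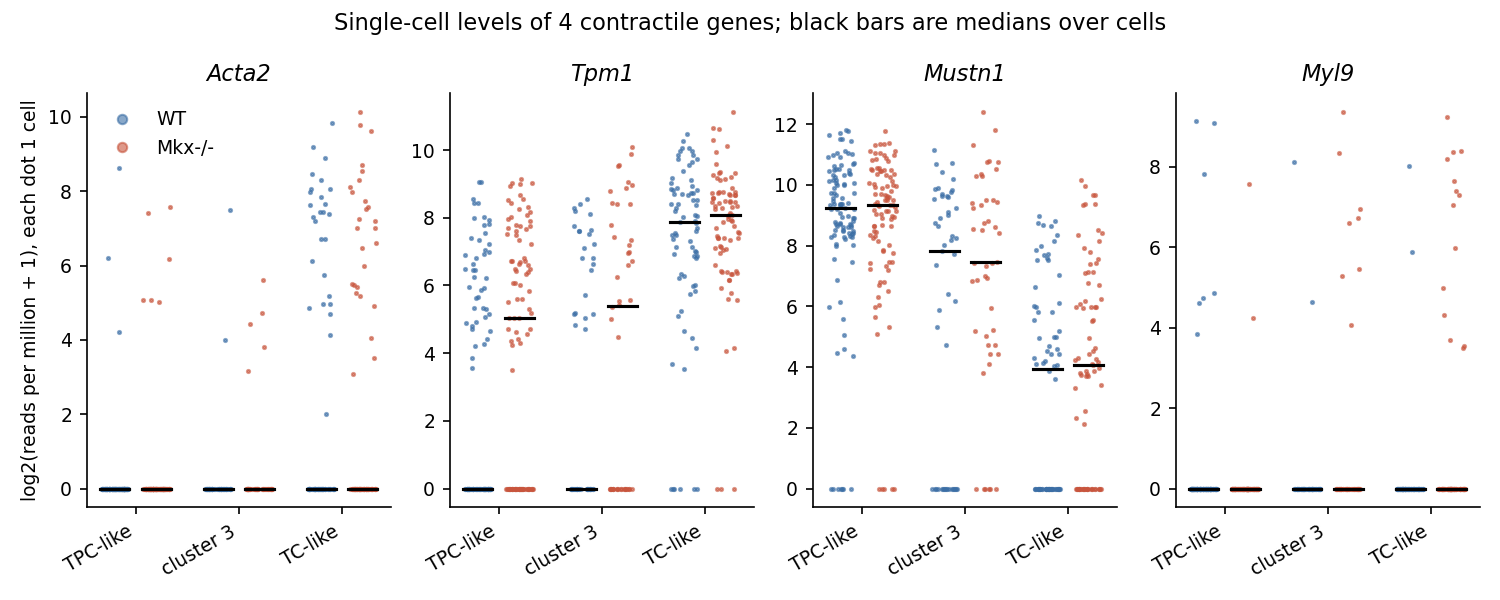
Level of Acta2, Tpm1, Mustn1 and Myl9 in every cell, as log2(CPM + 1), by state and genotype (WT blue, Mkx-/- red), with black bars at the median over cells. Most cells lie at 0 for Acta2 and Myl9 in every state, Tpm1 is centred highest in TC-like cells and Mustn1 in TPC-like cells.

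To ask how the set differed between the genotypes, the level in Mkx-/- cells was divided by that in WT cells. Of the 10 members, 9 had at least 100 reads over both genotypes, and Cnn1 did not (26 and 23 reads). Differences were small for most of them. Past a 2-fold difference stood 1 of 9 members higher in Mkx-/- cells, Myl9, and 0 lower, where 7.23% of all 10963 genes with as many reads were higher and 6.12% lower. Without the deepest WT cell, 2 of 9 were higher, Tagln and Myl9, and 0 lower, against 7.58% and 5.81% of genes. With so few members, a count of 1 or 2 beside this background is not read as a result about the set. The median log2 ratio of the 9 was 0.28, beside 0.05 over all genes, and all 9 ratios lay above 0, as did 55.1% of genes. Without that cell the median was 0.30, beside 0.06, and 8 of 9 lay above 0.

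Myl9 had 98 reads from 11 WT cells and 285 reads in 24 Mkx-/- cells. These made 7.19 CPM (5.84 to 8.76) and 20.1 CPM (17.9 to 22.6), a log2 ratio of 1.49 (1.15 to 1.83). The richest cell accounted for 28.6% of these WT reads and 25.6% of those of Mkx-/-, and with these cells left out the ratio was 1.57. The ratio was 0.98 for the mean of per-cell CPM and 0.87 after thinning, so it did not pass 2-fold by those measures. The thinned share of cells with a read was 2.67% and 5.94%, a difference of 3.27 points (-0.616 to 7.48). Tagln (transgelin, SM22α) had 47 reads in 9 WT cells and 90 in 9 Mkx-/- cells, of which a single TPC-like cell held 36.7%. Its log2 ratio was 0.88 (0.36 to 1.42), 1.12 with the deepest WT cell left out, and 0.60 (-0.02 to 1.25) with the cell richest in Tagln left out of each genotype. A small number of cells thus set the size of the Tagln difference.

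Actn1 differed by the broadest margin in cells. It was read in 33.5% of WT and 52.7% of Mkx-/- cells, a difference of 19.2 points (10.1 to 27.9), and at equal depth in 23.6% and 41.1%, a difference of 17.5 points (8.86 to 25.9). WT cells held 48.9 CPM (45.3 to 52.8) and Mkx-/- cells 72.5 (68.1 to 77.04), giving a log2 ratio of 0.57 (0.42 to 0.71). Tpm1 was found at equal depth in 50.7% and 67.6% of cells, a difference of 16.9 points (7.78 to 25.6), and its log2 ratio was 0.27 (0.20 to 0.35). Tagln2 followed with 72.9% and 83.6%, a difference of 10.7 points (2.99 to 18.2), and a log2 ratio of 0.28 (0.23 to 0.34). A thinned share at least 10 points higher in Mkx-/- cells was thus seen in 3 of 9 members and in 3.72% of all genes. A share at least 10 points lower was seen in 0 of 9 members and 0.493% of genes. A gene as sparse as Tagln, with thinned shares of 3.56% and 2.74%, cannot differ by 10 points. Such genes are part of this background, so the count of 3 is not read as a result about the set. The median difference was 2.31 points over the members and 0.846 points over all genes. Without the deepest WT cell the log2 ratios were 0.57 for Actn1, 0.32 for Tpm1 and 0.30 for Tagln2.

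Markers of other cell types also differed between the genotypes. A Schwann cell marker was read in 20.7% of WT and 45.5% of Mkx-/- cells, with all 4 markers read in both, summed levels of 92.4 and 144.1 CPM (51.5 in WT without the deepest cell) and levels per cell from 0 to 4287 and from 0 to 6150 CPM. The 9 endothelial markers stood at 97.7 CPM in WT (64.5 without the deepest cell) and 33.9 CPM in Mkx-/-, with a read in 32.6% and 31.7% of cells, levels per cell from 0 to 1412 and from 0 to 2774 CPM, and Tie1, Egfl7 and Cldn5 at 0 in Mkx-/-. The part of these markers in the differences of the members was not tested.

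The other members differed less. Acta2 had 34.6 CPM (31.6 to 37.9) and 43.8 CPM (40.4 to 47.3) in WT and Mkx-/-, with a log2 ratio of 0.34 (0.16 to 0.51). With its richest cell left out of each genotype this was 0.18 (-0.01 to 0.37), and the thinned shares of 11.1% and 12.8% differed by 1.67 points (-4.42 to 7.82). Mustn1 had a log2 ratio of 0.16 (0.11 to 0.21), and its thinned shares of 67.6% and 69.9% differed by 2.31 points (-6.30 to 10.8). Cnn2 had 0.19 (0.03 to 0.35), or 0.15 (-0.01 to 0.31) without the deepest WT cell. Tpm2 had 0.03 (-0.29 to 0.36), and its sign changed with the scaling. All 23 Cnn1 reads of Mkx-/- cells were in a single cluster 3 cell, which also held 26 of the 90 Tagln reads, so no statement on Cnn1 is made.

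**Figure D3:**
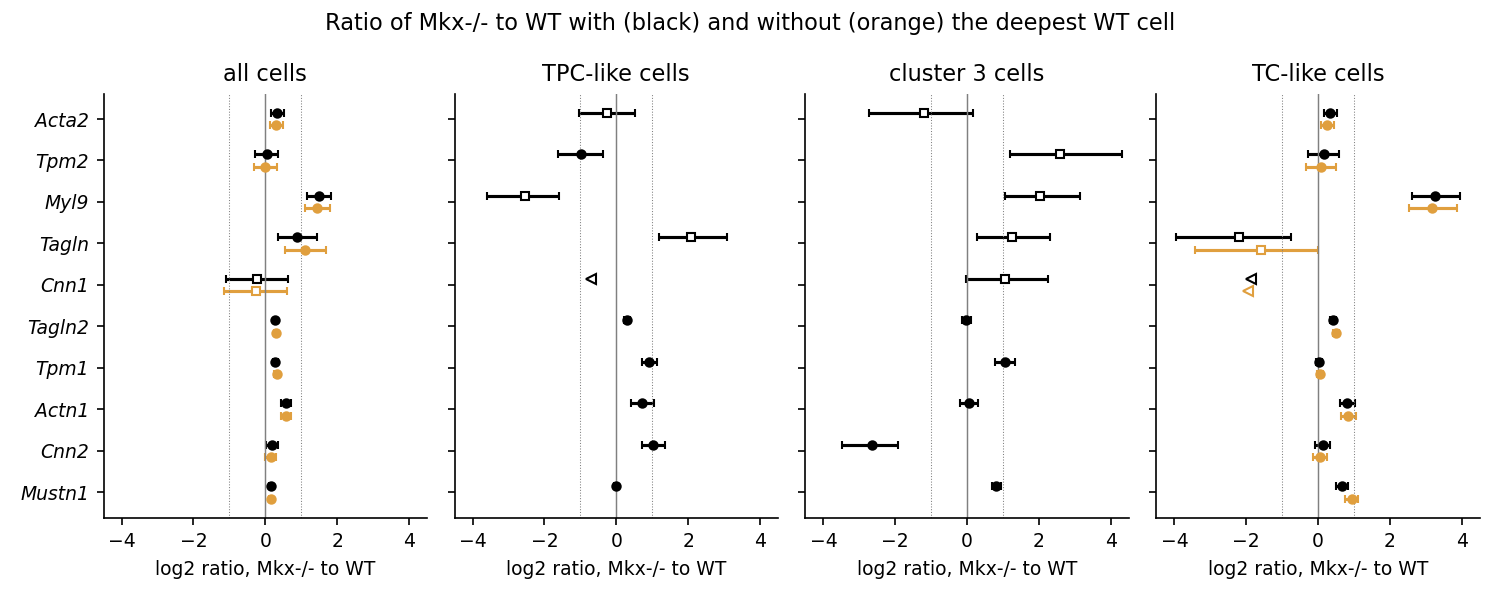
Log2 ratio of Mkx-/- to WT for each contractile gene in all cells and in each state, with 95% intervals for counting error, with all cells in black and without the deepest WT cell in orange; open symbols had fewer than 100 reads, open triangles are upper bounds against 0 reads and dotted lines mark 2-fold. In all cells Myl9 lies past 2-fold, and within states Myl9, Tagln, Cnn2 and Tpm2 lie on different sides of 0.

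Within states the members parted. In TC-like cells 8 members had at least 100 reads, of which 1 was past 2-fold higher (Myl9, 14.1% of genes) and 0 lower (6.7% of genes), with a median log2 ratio of 0.38 beside 0.21 for all genes. Myl9 had 22 reads in 2 WT and 229 reads in 14 Mkx-/- TC-like cells, or 3.46 CPM (2.17 to 5.24) and 32.9 CPM (28.8 to 37.4). The log2 ratio was 3.25 (2.61 to 3.95), or 4.87 with its richest cell left out of each genotype. Actn1 was read in 40.5% of WT and 71.6% of Mkx-/- TC-like cells, with a log2 ratio of 0.82 (0.61 to 1.03), whereas Tpm1 did not differ beyond its interval (0.03, -0.06 to 0.11). Mustn1 had a log2 ratio of 0.67 (0.51 to 0.83), or 0.93 (0.76 to 1.11) without the deepest WT cell, which left Myl9 at 3.17, Actn1 at 0.84 and Tpm1 at 0.04. With its richest cell left out of each genotype, Mustn1 stood at 0.71 (0.54 to 0.89). Its median over TC-like cells was only 14.4 CPM in WT and 15.7 CPM in Mkx-/-. The thinned share with a Mustn1 read was 39.2% and 40.7%, a difference of 1.55 points (-13.6 to 16.6).

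In TPC-like cells 6 members had at least 100 reads, of which 1 was past 2-fold higher (Cnn2, 8.09% of genes) and 0 lower (7.35%), with a median of 0.52 beside 0.00. Cnn2 was at 24.6 CPM for WT and 50.3 CPM (44.2 to 56.9) for Mkx-/-, and was found in 13.5% and 24.7% of cells. After thinning these shares were 9.71% and 19.4%, a difference of 9.65 points (-0.255 to 19.8). Tpm1 had a log2 ratio of 0.92 (0.71 to 1.13), and the thinned share with a read was 33.01% and 53.8%. Tpm2 had 68 WT and 34 Mkx-/- reads, a log2 ratio of -0.97 (-1.61 to -0.36), although 13 cells had a read in each genotype. In cluster 3, 5 members had at least 100 reads, of which 1 was higher (Tpm1, 11.4% of genes) and 1 lower (Cnn2, 9.34%), with a median of 0.05 beside 0.06. Tpm1 had a log2 ratio of 1.04 (0.76 to 1.32) there. Cnn2 stood at 49.6 CPM in WT, from 10 of 49 cells, and at 7.86 CPM (4.58 to 12.6) in Mkx-/-, from 2 of 46 cells. The log2 ratio was -2.66 (-3.49 to -1.91), and a single Mkx-/- cell held 94.1% of the 17 reads. The thinned share of cells with Cnn2 was 16.7% in WT and 2.22% in Mkx-/- cells, a difference of -14.4 points (-27.5 to -2.16).

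**Figure D4:**
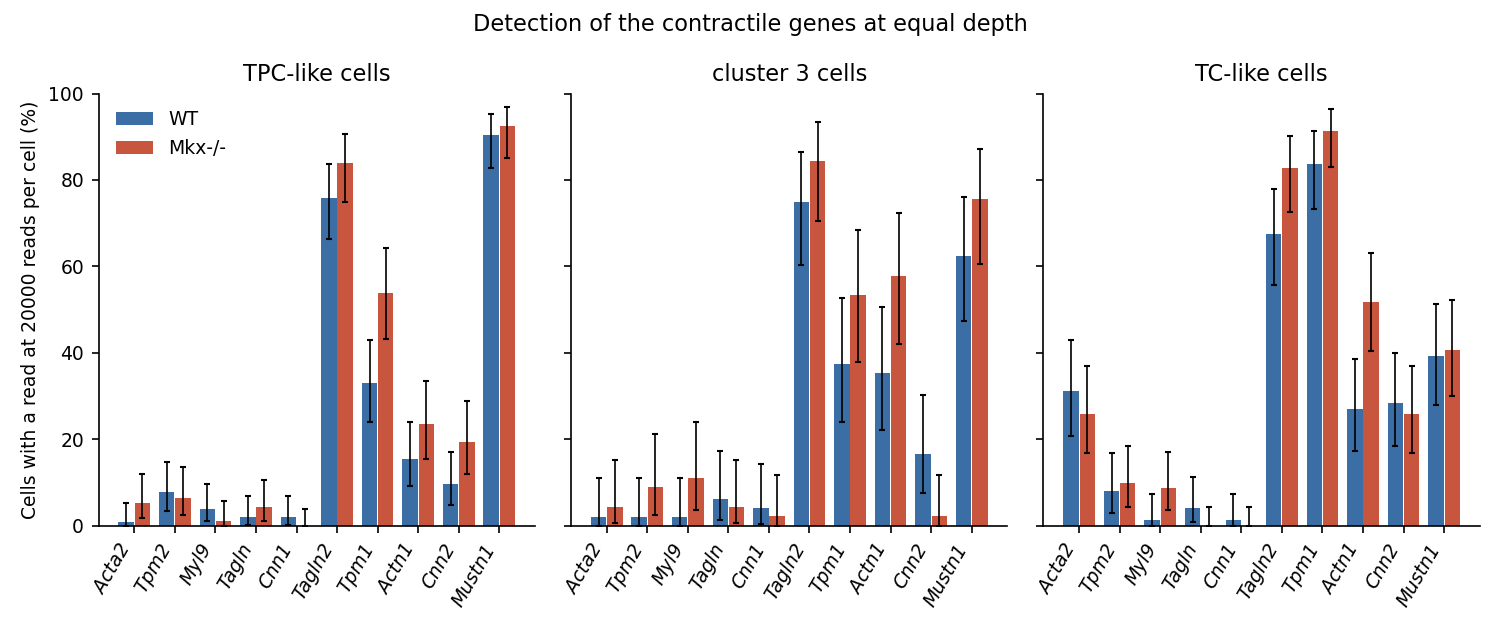
Share of cells with a read of each contractile gene after thinning every cell to 20000 reads, by state, with WT in blue, Mkx-/- in red and bars for 95% Clopper-Pearson intervals. In TC-like cells Actn1 was seen in 27.03% for WT and 51.9% for Mkx-/-, and in TPC-like cells Tpm1 was seen in 33.01% and 53.8%.

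Whether the members occur in the same cells was examined next. At least 1 of the 5 smooth muscle genes was read in 32.6% of WT cells (26.5 to 39.1) and 36.6% of Mkx-/- cells (30.3 to 43.3), and at equal depth in 24% and 24.7%. At least 2 of them were read in 10 WT and 19 Mkx-/- cells, and at least 3 in 0 and 3 cells. No cell held all 5. The 3 cells were all TC-like, and each had reads of Acta2, Myl9 and Tpm2. They had 4, 11 and 93 reads of Acta2, 18, 9 and 1 of Myl9, and 9, 3 and 36 of Tpm2. Each also had reads of 1 of the 9 smooth muscle markers, 4, 31 and 7 in number, and 2 of them had 1 read each of a Schwann cell marker. Endothelial markers were at 0 in all 3, and 0, 2 and 1 of 9 pericyte markers had a read. The deepest Mkx-/- cell (294791 reads) was among them, and it alone of all cells had 9 of the 10 members. All 5 of the widely read members occurred together in 5 WT and 19 Mkx-/- cells, of which 3 and 15 were TC-like. These counts of cells with several members were not thinned, so they depend on depth. At equal depth a mean of 2.32 of the 5 widely read members had a read per WT cell and 2.80 per Mkx-/- cell.

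Across the 45 pairs of members the median Spearman correlation of log2(CPM + 1) over cells was -0.002 in WT cells other than the deepest and 0.06 in the 224 Mkx-/- cells. These are descriptions, since the points share a library each and differ in depth and state. The lowest value in both genotypes was that of Tpm1 with Mustn1, at -0.34 and -0.38. Acta2 went with Tpm1 at 0.27 and 0.22, and the pair was read together in 27 of these WT cells where the product of the shares gives 18.5, and in 34 Mkx-/- cells against 27.7. Of the 45 pairs, 26 in these WT cells and 35 in Mkx-/- cells were read together more often than that product gives. After thinning these numbers were 22 and 23. Within TC-like cells, the deepest WT cell again left out, the correlation of Acta2 with Tpm1 was 0.06 in WT and 0.10 in Mkx-/-, and that of Tpm1 with Mustn1 was -0.20 and -0.09. The highest value, 0.34 for Tagln with Cnn1 in Mkx-/- cells, came from a single cell. In WT, Tagln was read together with neither Cnn1 nor Myl9 in any cell, and these genes are so sparse that fewer than 1 such cell was due by the product of the shares.

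**Figure D5:**
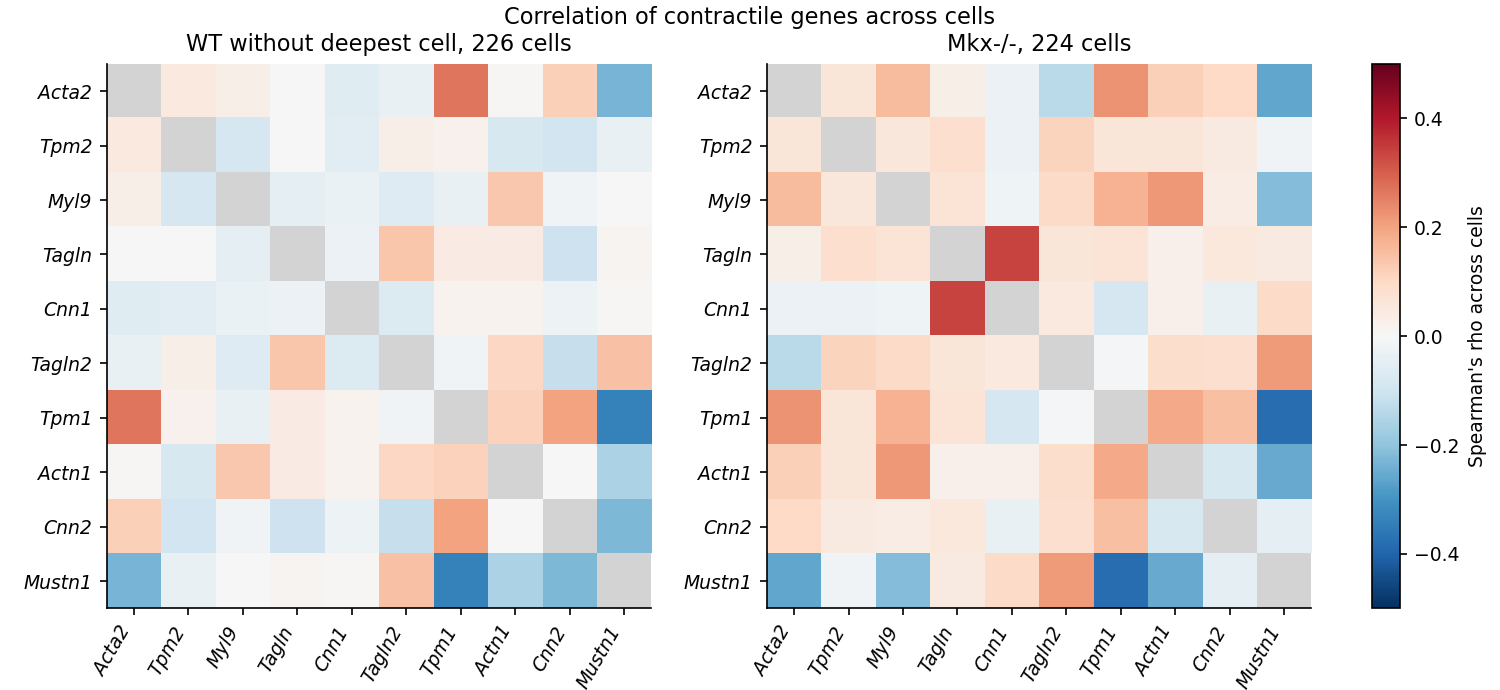
Spearman's rho of log2(CPM + 1) across cells for each pair of contractile genes, in WT cells without the deepest cell and in Mkx-/- cells. Most pairs lie near 0, Tpm1 with Mustn1 is the lowest in both panels (-0.34 and -0.38), and the dark red field of Tagln with Cnn1 is due to 1 cell.

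Of the genes outside the set with a read in at least 20% of cells, 1500015O10Rik, Pdgfrl, Kera, Col1a2 and Chad were closest to Acta2 by Spearman correlation, at 0.37, 0.40, 0.37, 0.39 and 0.32 in WT and 0.35, 0.34, 0.32, 0.32 and 0.32 in Mkx-/- cells. Kera and Col1a2 encode a proteoglycan and a collagen chain of tendon matrix. The gene closest to Tagln was Itga6, at 0.19 and 0.28, and its next 4 lay between 0.16 and 0.20 in WT, with few cells holding a Tagln read. A pericyte marker was read in 66.1% of all WT and 68.3% of all Mkx-/- cells, so such a read does not by itself mark a pericyte. Of these markers Higd1b was at 0 in both genotypes, and Kcnj8 and Notch3 were at 0 in Mkx-/-. Cells with an Acta2 read had a pericyte marker about as often as cells without, 68.8% against 65.6% in WT and 71.1% against 67.7% in Mkx-/-. For Tagln it was 8 of 9 cells in each genotype (88.9%), against 65.1% of WT and 67.4% of Mkx-/- cells without Tagln. For Myl9 it was 10 of 11 WT cells (90.9%) against 64.8%, and 18 of 24 Mkx-/- cells against 67.5%. Cells with Tagln had median depths of 60993 against 51007.5 reads in WT and 69702 against 54707 in Mkx-/-. Those with Myl9 had 44834 against 51911.5 and 63574.5 against 54252 reads. A Schwann cell marker was read in 21.9% of WT cells with Acta2 against 20.5% without, and in 60.5% against 42.5% of Mkx-/- cells. Among the smooth muscle markers, Smtn and Synpo2 held most reads in both genotypes. Cells with Acta2 had a smooth muscle marker in 31.3% against 28.2% of WT cells, and in 19 of 38 against 37.1% of Mkx-/- cells. Their median depths were 77705 against 48130 reads in WT and 74941 against 52094 reads in Mkx-/-. Cells with a Myl9 read had a smooth muscle marker in 9.09% against 29.6% in WT and in 58.3% against 37.0% in Mkx-/-. The part of these markers in the values of the members was not tested.

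The remaining genes of the pathway were described from lists. Of the 10 genes of the smooth muscle list, 3 had at least 100 reads. Of these, 1 was past 2-fold higher and 1 lower, beside 7.23% and 6.12% of all genes. Synpo2, an actin-bundling protein, had 59 WT and 253 Mkx-/- reads (log2 ratio 2.05, 1.63 to 2.48). Of these, 36 and 245 were in TC-like cells, the state with the most Myl9 reads in Mkx-/- cells. They came from 3 WT and 14 Mkx-/- TC-like cells, and a single cell held 34.3% of the 245 reads. The thinned share of all cells with a Synpo2 read differed by 2.84 points (-1.33 to 7.25). Mylk, the kinase that activates myosin by phosphorylating its regulatory light chain, had 457 and 228 reads (-1.06, -1.29 to -0.82). In TC-like cells 43.2% of WT and 22.2% of Mkx-/- cells had a Mylk read, or 29.7% and 17.3% after thinning. The thinned share of all cells with a Mylk read differed by -2.45 points (-8.01 to 3.11). Smtn had 0.33. Myocd, the smooth muscle partner of SRF, had 16 reads in 1 WT cell and 47 in 2 Mkx-/- cells. All 11 actin, myosin, calponin, α-actinin and tropomyosin genes of most cells had at least 100 reads and 0 were past 2-fold, from -0.30 (Cnn3) and -0.28 (Myl12b) to 0.46 (Actn4) and 0.46 (Actg1), with a median of 0.16 beside 0.05 over all genes.

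All 12 adhesion genes and regulators, with Mkl1 and Mkl2 under these older symbols of Mrtfa and Mrtfb, were in the table, and 11 had at least 100 reads. Past 2-fold stood 1 higher, Vcl (vinculin, which links actin to adhesions), with 8.14 and 18.7 CPM in WT and Mkx-/- and a log2 ratio of 1.20 (0.88 to 1.53), and 0 lower, beside 7.23% and 6.12% of all genes, so this count is not read as a result about the list. Srf had 10.5 and 18.8 CPM, a log2 ratio of 0.84 (0.54 to 1.15). The thinned share of cells with a read differed by 5.71 points for Vcl (-0.212 to 11.7) and by 2.98 points for Srf (-2.76 to 8.81). Mkl2, which encodes a myocardin-related factor, had -0.81 (-1.01 to -0.61), and Tgfb1i1, an adhesion protein, had -0.68. Mkl1, which encodes another myocardin-related factor, went the other way, at 0.79 (0.26 to 1.33) from 48 WT and 86 Mkx-/- reads. Thinned shares differed by -4.15 points for Mkl2 (-10.5 to 2.18) and by 0.085 points for Mkl1 (-3.48 to 3.71). The median of the list was 0.09, beside 0.05 over all genes.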

How the data were processed

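The authors deposited raw counts of reads per gene symbol and cell, made after quality trimming with Bowtie2 and featureCounts. The study's methods name the mm9 genome and the submitters' processing notes mm10, and the table holds no coordinates, so positions are given only on GRCm38.p6 from RefSeq. Reads are not unique molecules. No cell or gene was removed, 0 columns were unused, no doublet caller was run because the submitters left out wells with several cells, and the highest correlation between cells was 0.653, so none was counted as a duplicate. Whether the deepest WT cell, with its endothelial, pericyte and Schwann cell reads, came from a well with several cells was not tested. A search of the genome (blastn 2.17.0) found 0 copies of a member transcript at 95% identity over 100 bases or more. In the annotation Pcsk7 (104 reads) overlaps Tagln and Car9 overlaps Tpm2.

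Counts were summed per genotype or state and divided by summed reads (CPM). Where a sum was 0 the ratio used 3 reads and is a bound, and ratios of sums both at 3 reads or fewer were left out. Genes needed 100 reads over both genotypes for counts past 2-fold. Seurat 5.3.0 (R 4.3.3) aligned the union of the 1000 most variable genes per genotype among genes read in at least 3 cells, and 4 dimensions were clustered at resolution 0.4. The states were rebuilt here and may differ in membership from the study's clusters. Thinning to 20000 reads left out 2 WT and 5 Mkx-/- cells. Other scalings came from edgeR 4.0.16 (TMM) and DESeq2 1.42.0 (median of ratios), used for scaling only. Ratios with their intervals were tested on simulated independent Poisson counts, and intervals of share differences on binomial counts, as the intervals assume. Reads clumped in single cells were not simulated, so coverage for such genes was not tested. The members and lists were chosen with earlier results of these data known. The text names all 10 members, the 2 highest and 2 lowest genes of each list, and all genes of the smooth muscle list. Mkl1 is given beside Mkl2. It also names the 5 genes most like Acta2 (for Tagln the closest) by the lower of both genotypes' correlations among 4711 candidates.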

Additional observations from a re-analysis of the deposited data

Results flagged for a closer look

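For 4 members the ratio of Mkx-/- to WT had opposite signs in different states, each beyond its interval for counting error. The difference between states was not tested, since each genotype was 1 sample. Myl9 had a log2 ratio of -2.53 in TPC-like cells (65 and 11 reads), 2.03 in cluster 3 (11 and 45 reads) and 3.25 in TC-like cells. With the richest cell left out of each genotype these were -5.18, 4.64 and 4.87. Tagln had 2.08 in TPC-like cells (13 and 54 reads), 1.25 in cluster 3 (13 and 31 reads) and -2.20 in TC-like cells (21 and 5 reads). Without the leading cells the cluster 3 value turned to -0.46 (-2.46 to 1.41, 7 and 5 reads). The others were then 3.41 (2 and 21 reads) and -3.55 (11 and 1 reads). Without the deepest WT cell the TC-like value was -1.59 (-3.43 to -0.01). Cnn2 had 1.03 in TPC-like cells and -2.66 in cluster 3, or 1.27 and -6.23 without the leading cells. Tpm2 had -0.97 in TPC-like cells and 2.58 in cluster 3 (5 and 30 reads), or -0.94 (53 and 27 reads) and 2.74 (3 and 20 reads). The same pattern was met in 34.4% of the 10963 genes with at least 100 reads.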

How the results depend on the processing

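The median log2 ratio of the members in all cells (0.28) was 0.18 when per-cell CPM were averaged and 0.46 in cells with at least 2500 genes. The number of members past 2-fold (1) was 2 without the deepest WT cell, 2 with equal weight per state and 0 after thinning to 20000 reads. The share of all genes past 2-fold in either direction was 36.3% over genes with at least 1 read and 4.09% over genes with at least 500 reads. The median in cluster 3 (0.05) was 0.35 when clustered in 10 dimensions and 0.31 when clustered over all genes with a read, an alternative chosen after seeing the data. The cause of these shifts was not tested. Over 10 settings in all cells, the main values included, Acta2, Tagln, Tagln2, Myl9, Tpm1, Actn1 and Mustn1 kept their sign in 10, Cnn1 and Cnn2 in 8 and Tpm2 in 3, and Mustn1 was at 0.01 after thinning. Within states 74 of 84 alternative values moved by less than their interval. So did 60 of 90 member ratios in all cells, 68 of 76 ratios of state over state and only 17 of 40 shares. Resolution 0.6 gave 4 clusters, so no state could be matched to it and it gives no values. No paired analysis was possible because the cell numbers are only names and pair no cells across genotypes. Tagln, Cnn1, Myl9 and Tpm2 were each read in under 15% of cells of both genotypes, so their ratios rest on few cells, and at this depth a low level cannot be told apart from reads that were missed.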
